A study of Mus musculus with 24 samples.

Results

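Solute carriers are membrane proteins that move ions, nutrients, metals, vitamins and metabolites across the plasma membrane and the membranes of vesicles and organelles, and they are numbered in families by sequence. In the choroid plexus, the folded epithelium that makes cerebrospinal fluid (CSF), carriers on the blood side and the CSF side set which solutes enter the CSF and which are cleared from it. Peptide, vitamin, metal, sugar and acid-base carriers are all known there.

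The carriers described here are the genes whose symbol starts with Slc and a family number, without the mitochondrial Slc25 family and 11 further genes, among them the cotransporters Slc12a2 and Slc4a5 and the brain glutamate and vesicle carriers Slc1a2, Slc1a3, Slc17a7 and Slc32a1. The array had probes for 277 such genes (399 probes). Of these genes, 140 (167 probes) passed because a probe had a detection p below 0.01 on 3 or more arrays, among 8232 genes tested, and each is given by its brightest such probe. The choice used the symbol and detection over all arrays and no difference between groups. The other 137 genes did not pass: 122 were detected on 0 arrays and 15 on 1 or 2. The symbols also take in carriers of the Golgi and endoplasmic reticulum (Slc35, 19 genes that passed), so the set is wider than plasma membrane and vesicles. Of the 140 names, 4 are not carriers: Slc9a3r1 and Slc9a3r2 are scaffold proteins, Slc4a1ap is an adaptor-associated protein and Slc7a6os lies opposite another gene, which leaves 136 carriers.

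The samples were choroid plexus of 24 mice, 1 Illumina array per mouse, and the study asked how genotype and age change this tissue's RNA. J20 mice, written AD in the titles, carry a mutant human APP transgene under a platelet-derived growth factor promoter, and WT mice do not. There were 4 J20 and 3 WT animals at 3 months, 4 J20 and 4 WT at 5-6 months, and 3 J20 and 6 WT at 11-12 months. Animals are named by the number in their title. The sources used here do not give the sex of the animals. The arrays are assigned here to 3 BeadChips of 8, and BeadChip 1 holds 0 J20 arrays of 11-12 months. The titles do not name a BeadChip, and the BeadChip numbers follow the order of the samples in runs of 8. BeadChip always means such a run here, and whether each run was 1 physical BeadChip was not tested. A run holds few animals of a group, in places a single one, so a difference within a BeadChip can set 1 animal against 1. Levels are log2 of background-corrected, quantile-normalized intensity (neqc), and differences are log2 differences of group means from 1 limma fit of all arrays. Adjustment was by the Benjamini-Hochberg method and covered the 11464 tested probes, and a call is an adjusted p under 0.05. A probe's level is comparable between animals and not with that of another probe.

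Between 34.97% and 41.64% of all probes were detected on an array, and 110 to 133 of the 140 members. The tissue label was checked against fixed markers: 8 of 11 choroid plexus epithelium markers passed, all 8 on all 24 arrays, with Ttr at 14.75 to 15.08, and their mean deviation per array ran from -0.251 to 0.244. Neuron markers passed for 9 of 12 genes, and 3 arrays had a mean deviation above 1: J20 3-month animal 16 (1.07), J20 5-6-month animal 11 (1.69) and WT 11-12-month animal 13 (2.57). WT 11-12-month animal 5 stood apart in pituitary markers (6.21, of which Pomc and Cga did not pass the filter). In tissue RNA, fewer cells of a type and less RNA per cell cannot be told apart.

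The family members on the array differed by role in how many were measurable. Golgi and endoplasmic reticulum carriers passed in 19 of 25 genes (76%) and metal carriers in 19 of 27 (70.4%). Vitamin, nucleoside, choline and phosphate carriers passed in 16 of 29 (55.2%), amino acid and peptide carriers in 24 of 44 (54.5%), and ion and acid-base carriers in 20 of 43 (46.5%). Carriers of sugars, monocarboxylates and other fuels passed in 22 of 48 (45.8%) and those of organic ions, bile acids and lipids in 11 of 31 (35.5%). Carriers of neurotransmitters, creatine and taurine passed in 9 of 29 (31%). Roles go by family number, so single members may move other substrates. In all, 95 members were detected on all 24 arrays and 45 on fewer.

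The brightest probes were steady from animal to animal. Slc4a2, the basolateral chloride-bicarbonate exchanger AE2 of this epithelium, lay between 14.08 and 14.65 over the 24 arrays. Slc13a4, a sulfate carrier, lay between 13.999 and 14.399, with group means of 14.25 in J20 and 14.26 in WT at 3 months, 14.27 in J20 and 14.23 in WT at 5-6 months, and 14.19 in J20 and 14.16 in WT at 11-12 months. Slc22a17, a receptor for the iron-binding protein lipocalin-2, lay between 13.04 and 13.95. Slc31a1, the high-affinity copper importer, lay between 13.35 and 13.86, and Slc39a12, a zinc importer, between 12.83 and 13.55. Slc29a4, the plasma membrane monoamine carrier, lay between 13.18 and 13.93. Slc16a8, a lactate carrier found in choroid plexus and retinal pigment epithelium, lay between 12.52 and 13.34. Slc5a6, the biotin and pantothenate carrier, lay between 12.14 and 12.78, and Slc48a1, a haem carrier, between 11.90 and 12.49. None of these 9 probes spanned a log2 range above 1 over all animals.

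Some carriers known from transport physiology were not measurable here. The lactate carrier Slc16a1 was detected on 0 of 24 arrays. The serotonin carrier Slc6a4, the vesicular monoamine carrier Slc18a2, the renal glucose carrier Slc5a2 and the bile acid carrier Slc10a1 were also detected on 0 arrays. The kidney cotransporter Slc12a1, the intestinal glucose carrier Slc5a1, the dopamine carrier Slc6a3 and the GABA carrier Slc6a11 were each detected on 1. A probe that is not well above background shows only that this probe gave no usable signal.

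No member was called between J20 and WT choroid plexus. Over the 3 ages weighted equally, limma called 0 of 140 members and 0% of all 11464 tested probes. At an unadjusted p under 0.05 there were 4 members (2.86%), 3 higher (Slc15a2, Slc2a1 and Slc35f6) and 1 lower (Slc35a5) in J20, against 1.98% of all tested probes. The members' median difference was 0.0092, beside 0.009 for all tested probes. The 95% interval lay within 1.5-fold in either direction for 127 members (90.7%), against 85.5% of all tested probes.

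Intervals were narrow for the carriers best known in this epithelium. The glucose carrier Slc2a1 (GLUT1) averaged 12.11 in J20 and 11.95 in WT (0.16, 95% interval 0.015 to 0.302, unadjusted p = 0.032, adjusted p = 1 in limma). Slc4a2 differed by 0.082 (-0.0667 to 0.23) and Slc13a4 by 0.021 (-0.115 to 0.156). The proton-coupled folate carrier Slc46a1 differed by -0.011 (-0.152 to 0.13), and the reduced folate carrier Slc19a1 by -0.137 (-0.416 to 0.141). The ascorbate carrier Slc23a2 differed by 0.134 (-0.0959 to 0.365). Copper importer Slc31a1 (0.036, -0.131 to 0.204), zinc importer Slc39a12 (0.013, -0.163 to 0.19) and phosphate carrier Slc20a2 (0.034, -0.15 to 0.218) also had bounds under 1.5-fold. The creatine carrier Slc6a8 differed by -0.089 (-0.238 to 0.0602). The myo-inositol carrier Slc5a3 was the least certain of these genes, at 0.156 with an interval of -0.822 to 1.13.

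**Figure D1:**
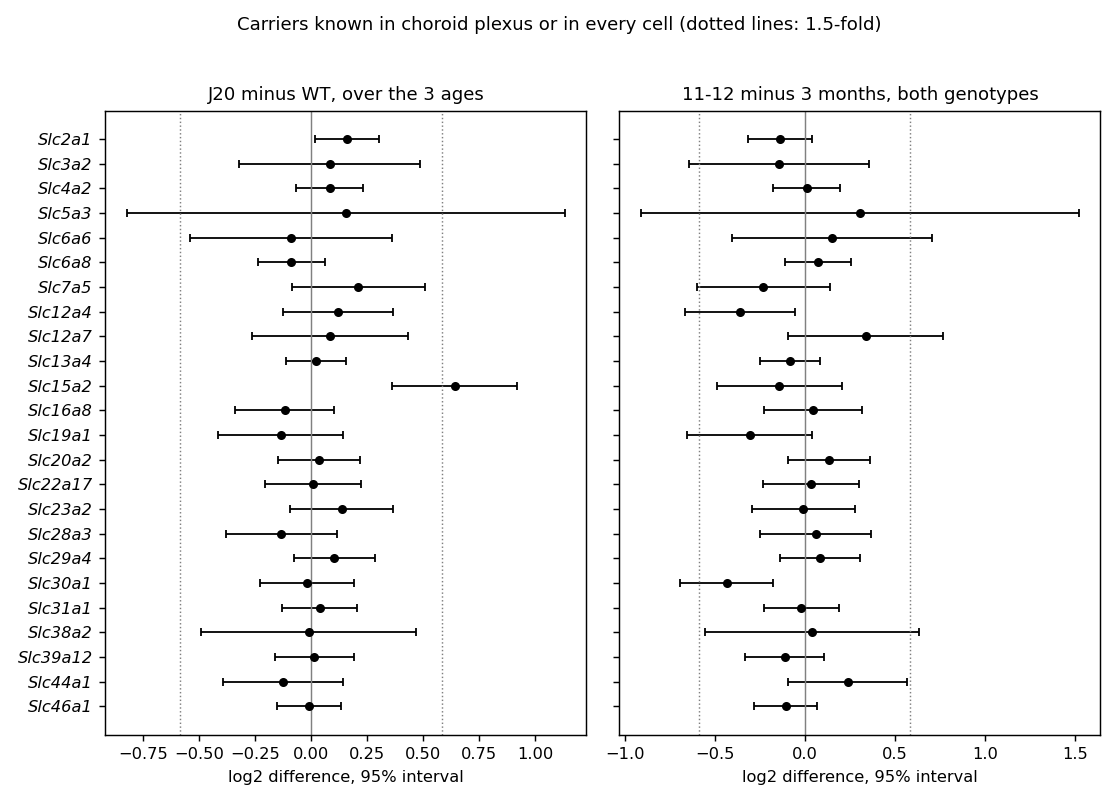
Log2 differences of 24 carriers named for their place in choroid plexus or in every cell, J20 minus WT over the 3 ages on the left and 11-12 minus 3 months over both genotypes on the right, with 95% intervals from limma and dotted lines at 1.5-fold. Slc15a2 on the left (0.64) and Slc30a1 on the right (-0.43) lie farthest from 0 relative to their intervals, and Slc5a3 has the widest interval in both panels.

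Slc15a2, the carrier that takes short peptides out of the CSF across the choroid plexus epithelium (PEPT2), had the smallest p of all members between genotypes. At 3 months it was 5.75, 6.03, 6.04 and 6.08 in J20 animals, against 4.52, 4.65 and 5.90 in WT animals. At 5-6 months it was 5.66, 5.67, 5.88 and 5.95 in J20 animals, against 4.93, 4.98, 5.11 and 5.69 in WT animals. At 11-12 months it was 5.38, 5.42 and 5.81 in J20 animals, against a lowest, median and highest level of 4.98, 5.17 and 5.49 in the 6 WT animals. At each age the groups overlapped through 1 WT animal, number 22, 17 or 34, while 10 of 13 WT animals lay below the lowest of the 11 J20 animals. The probe was dim: it was detected on 8 of 11 J20 arrays and 3 of 13 WT arrays.

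Averaged over the ages Slc15a2 was 5.77 in J20 and 5.13 in WT, a difference of 0.64 (standard error 0.134, 95% interval 0.361 to 0.919, 1.56-fold) that did not pass (unadjusted p = 9.86e-05, adjusted p = 0.46 in limma). The differences by age were 0.95 at 3 months, 0.61 at 5-6 months and 0.36 at 11-12 months. Within BeadChips the difference over the ages was 0.649 on BeadChip 2 and 0.376 on BeadChip 3. At 3 months it was 1.4, 1.52 and -0.148 on BeadChips 1, 2 and 3. The last 2 of these set single animals against each other, J20 16 against WT 15 and J20 23 against WT 22. Without WT animal 22 limma called Slc15a2, with a difference of 0.786 over the ages (adjusted p = 0.00132) and 1.39 at 3 months (adjusted p = 0.00665). It was then the 1 probe called in the whole table in each comparison. Animal 22 had the highest Slc15a2 level of all WT animals (5.90), so leaving it out must widen the difference. The call made without it is therefore no separate evidence for a difference. The label of animal 22 was taken as given, and whether it is right was not tested, so the values with and without that animal stand side by side. On the deposited values, which keep their background, the difference over the ages was 0.176 (adjusted p = 0.999). Over all settings tried its adjusted p ran from 0.00132 to 1 over the ages and from 0.00665 to 1 at 3 months.

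Slc35a5, a Golgi protein of the nucleotide sugar carrier family, was lower in J20 on both probes that passed the filter, of 3 on the array. At 3 months its brighter probe read 8.47, 8.5, 8.58 and 8.61 in J20 animals, against 8.62, 8.69 and 8.97 in WT animals. At 5-6 months it read 8.34, 8.74, 8.94 and 9.04 in J20 animals, against 8.87, 8.91, 8.98 and 9.21 in WT animals. At 11-12 months it read 8.33, 8.54 and 8.61 in J20 animals, against a lowest, median and highest level of 8.86, 8.94 and 9.03 in the 6 WT animals. On this probe the genotypes did not overlap at 3 months, by a narrow margin, nor at 11-12 months, and overlapped at 5-6 months. On the other probe they overlapped at 3 months, where J20 animals reached 8.61 and the lowest WT animal had 8.49. They did not overlap there at 5-6 months, by a narrow margin (8.72 highest in J20, 8.73 lowest in WT), nor at 11-12 months (8.34 highest in J20, 8.66 lowest in WT).

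Over the 3 ages Slc35a5 was 8.6 in J20 and 8.90 in WT (-0.30, standard error 0.0788, unadjusted p = 0.000929, adjusted p = 1 in limma), and on the other probe it differed by -0.42 (standard error 0.0922, unadjusted p = 0.00016, adjusted p = 0.46 in limma). The levels of the 2 probes correlated with r = 0.841 over the 24 arrays, as a description. At 11-12 months the difference was -0.45 (95% interval -0.726 to -0.175) and -0.615 on the other probe, and within BeadChips 2 and 3 it was -0.354 and -0.496. Neither probe was called, except with array weights. Array weights let limma count the noisier arrays less. In J20 at 11-12 months they were 0.33, 1.43 and 4.69 for animals 21, 28 and 35, so animal 35 counted most in that group. Animal 35 had the group's lowest level on the brighter Slc35a5 probe (8.33) and its highest Slc15a2 level (5.81). Its log2 upper quartile of raw intensity, 7.44, was the lowest of the 24 arrays. With them both probes of Slc35a5, Slc15a2 and Gper1 were the 4 probes called over the 3 ages (0.0349% of those tested, adjusted p = 0.0366 each), with differences of -0.359 and -0.421 for Slc35a5 and 0.713 for Slc15a2. Over the settings tried, the adjusted p of the brighter Slc35a5 probe ran from 0.0366 to 1 over the 3 ages.

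**Figure D2:**
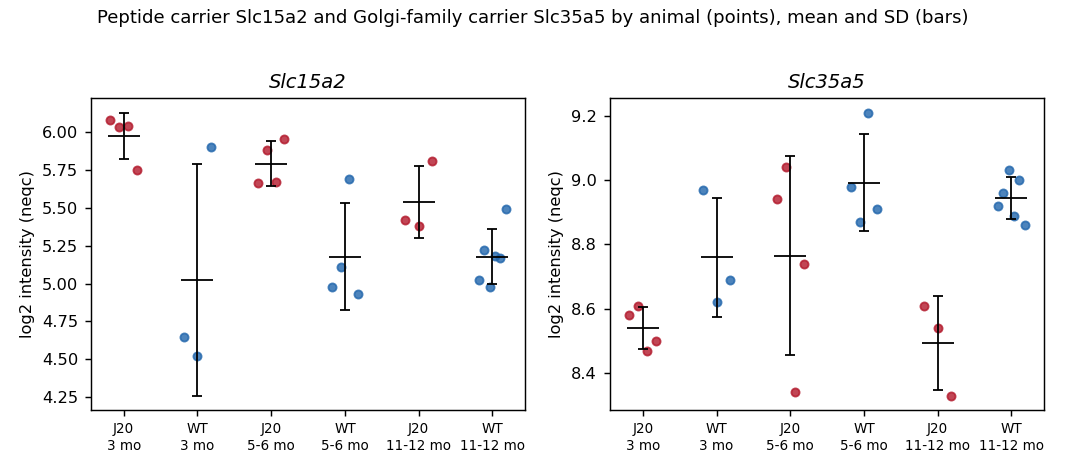
Log2 intensity (neqc) of Slc15a2 and Slc35a5 in each animal, with points for animals (red J20, blue WT), horizontal marks for group means and bars of 1 SD. In Slc15a2 10 of 13 WT animals lie below every J20 animal, and in Slc35a5 the 3 J20 animals of 11-12 months (8.33 to 8.61) lie below all 6 WT animals (8.86 to 9.03).

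Both genes lie on mouse chromosome 16. As background, the J20 transgene has been mapped to Zbtb20, which lies on the same chromosome, so a difference in the DNA linked to the transgene and an effect of the transgene product cannot be told apart in this design. On GRCm38.p6 the listed regions before the starts begin at base 36784963 for Slc15a2, 43247034 for Zbtb20 and 45158674 for Slc35a5. The other 2 members on chromosome 16, Slc7a4 (-0.159) and Slc5a3 (0.156), had an unadjusted p of 0.138 and 0.744 in limma. In the limma fit of all arrays without array weights, no member on chromosome 16 was called between genotypes. With array weights Slc15a2 and Slc35a5 were called over the ages, and Slc7a4 and Slc5a3 were not.

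The promoters of these 2 genes and of Slc30a1, the zinc exporter that leads the age comparison further on, are shown because their levels carry the genotype and age values. Each is the 250 bases before the start listed by RefSeq on GRCm38.p6, read 5′ to 3′ in the direction of the gene. They are chr16:36784963-36785212 on the minus strand for Slc15a2, chr16:45158674-45158923 on the minus strand for Slc35a5 and chr1:191906531-191906780 on the plus strand for Slc30a1. Capitals mark matches on either strand to TGCACNC and TGCGCNC, forms of the metal response element bound by the zinc-sensing factor MTF-1, and to the E-box CACGTG.
Slc15a2: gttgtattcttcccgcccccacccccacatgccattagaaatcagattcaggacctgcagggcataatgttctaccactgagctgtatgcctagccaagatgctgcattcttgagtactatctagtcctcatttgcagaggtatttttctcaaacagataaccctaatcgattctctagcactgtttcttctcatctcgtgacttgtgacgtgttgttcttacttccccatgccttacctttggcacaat
Slc35a5: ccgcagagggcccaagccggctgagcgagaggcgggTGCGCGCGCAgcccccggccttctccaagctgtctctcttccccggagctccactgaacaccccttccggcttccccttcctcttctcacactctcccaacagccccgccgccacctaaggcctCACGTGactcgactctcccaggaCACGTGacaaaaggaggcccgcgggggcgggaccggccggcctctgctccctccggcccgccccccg
Slc30a1: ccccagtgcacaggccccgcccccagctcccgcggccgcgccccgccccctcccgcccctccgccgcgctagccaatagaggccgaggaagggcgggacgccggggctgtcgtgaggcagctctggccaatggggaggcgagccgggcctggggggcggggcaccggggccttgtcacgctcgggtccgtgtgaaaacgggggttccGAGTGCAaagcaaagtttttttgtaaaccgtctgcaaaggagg
Slc15a2 held 0 matches. Slc35a5 held 4, of which 2 are TGCGCNC on opposite strands that overlap, first bases 214 and 211 before the start, and 2 are CACGTG, 90 and 67 before the start. Slc30a1 held 1, TGCACNC on the strand opposite the gene, 43 before the start. Of 27025 promoters of this length 10.2% held TGCACNC, 12.6% TGCGCNC and 6% CACGTG, and 0.45% held CACGTG more than once. Of the 114 members with a listed promoter 14.9%, 15.8% and 8.8% held the 3 motifs, and Slc35a5 was the 1 member with CACGTG more than once. A match describes letters in this window and says nothing of binding.

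At single ages the genotype comparison gave 0 calls among the members by limma, as among all probes (0% at each age). At 3 months 1 of 140 members had an unadjusted p under 0.05 (0.898% of all tested probes), which was Slc15a2. At 5-6 months there were 2 (1.26% of all tested probes), Slc15a2 and Slc2a1, which was 12.13 in J20 and 11.87 in WT. At 11-12 months there were 8, 4 higher and 4 lower in J20 (5.71% of the members, 5.85% of all tested probes). The members' median differences were -0.04, 0.04 and -9e-04 at the 3 ages, beside 0.0047, -0.0038 and 0.024 for all tested probes. The number of members with a 95% interval within 1.5-fold was 52, 64 and 55, so that at a single age most members could differ by more than 1.5-fold in one direction or the other within their error.

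Among the 11-12-month values, Slc7a8, the large neutral amino acid carrier LAT2, read 10.04, 10.34 and 10.80 in J20 animals, against a lowest, median and highest level of 9.59, 9.81 and 10.02 in the 6 WT animals. Its groups did not overlap, by a narrow margin (0.59, 95% interval 0.158 to 1.02, unadjusted p = 0.00967, adjusted p = 0.7 in limma). Its dimmer probe differed by 0.242 (unadjusted p = 0.128 in limma). The levels of its 2 probes correlated with r = 0.13 over the 24 arrays, as a description. Within BeadChips 2 and 3 the brighter probe differed by 0.869 and 0.304, and animal 21 (10.80) is the J20 animal on BeadChip 2. Leaving out 1 animal brought the Slc7a8 difference to between 0.385 and 0.765. With array weights limma called its brighter probe (0.49, adjusted p = 0.0407), and over all settings its adjusted p ran from 0.0407 to 1. Slc12a4, the potassium-chloride cotransporter KCC1, read 8.78, 8.96 and 9.18 in J20 animals, against a lowest, median and highest level of 8.24, 8.41 and 8.87 in the 6 WT animals, and the groups overlapped (0.45, adjusted p = 0.7 in limma). Slc35a2, the UDP-galactose carrier, averaged 8.35 in J20 and 8.85 in WT (-0.49, adjusted p = 0.7 in limma). Slc8b1, a mitochondrial sodium-calcium exchanger, averaged 8.23 in J20 and 7.74 in WT (0.49, adjusted p = 0.7 in limma). Within BeadChips 2 and 3 Slc35a2 differed by -0.958 and -0.284, and Slc8b1 by 0.7 and 0.0555. Slc9b2, a sodium-proton exchanger, was detected on 1 of 3 J20 arrays and not well above background on any of 6 WT arrays. As measured, its J20 mean was at least 1.11-fold higher, but most J20 arrays were also near background. Limma did not call this difference (adjusted p = 0.7). Such a bound sets the brighter group's mean against the lowest detected signal on the arrays of the dimmer group, or the probe's own signal if that is higher.

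The genotype by age interaction called 0 of 140 members and 0% of all probes by limma's F test, and 0 members had an unadjusted p under 0.05, against 1.47% of all tested probes. The smallest interaction p among members belonged to Slc7a7, the cationic amino acid exchanger y+LAT1, with differences of -0.359, 0.277 and -0.296 at 3, 5-6 and 11-12 months (unadjusted p = 0.0847, adjusted p = 0.986 in limma). For Slc15a2 the interaction had an unadjusted p of 0.23 and an adjusted p of 0.986 in limma, so its differences by age were not separated from each other.

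No carrier was called with age either. Over both genotypes weighted equally, 11-12 against 3 months gave 0 called members by limma, against 0.358% of all tested probes, the comparison with most calls (41). At an unadjusted p under 0.05 there were 12 members (8.57%), 2 higher and 10 lower at 11-12 months, against 5.97% of all tested probes. The median difference of the members was 0.0042, beside -0.0015 for all tested probes, and 71 members were higher and 69 lower. Intervals lay within 1.5-fold for 93 members (66.4%), against 70.6% of all tested probes.

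Slc30a1, the plasma membrane zinc exporter ZnT1, had the smallest p with age. Its lowest, median and highest levels were 6.50, 6.88 and 6.94 over the 7 animals of 3 months, 6.07, 6.49 and 6.78 over the 8 of 5-6 months, and 5.85, 6.34 and 6.68 over the 9 of 11-12 months. The ages overlapped, and 11-12 months averaged 6.34 against 6.77 at 3 months (-0.43, standard error 0.124, 95% interval -0.691 to -0.175, unadjusted p = 0.00218, adjusted p = 0.225 in limma). The same pair of ages differed by -0.41 within J20 and by -0.45 within WT. Within BeadChips 2 and 3 the difference was -0.296 and -0.531. In J20 alone it was 0.179 on BeadChip 2, animal 21 against animal 16. On BeadChip 3 it was -0.646, animals 28 and 35 against animal 23. The lowest animal of J20 at 3 months (16), of J20 at 5-6 months (11) and of WT at 11-12 months (13) are the 3 animals with the highest neuron marker score. Without these 3 the difference of Slc30a1 was -0.442 (adjusted p = 0.205 in limma). With array weights limma called it, at -0.422 (adjusted p = 0.0125), and over all settings its adjusted p ran from 0.0125 to 0.491.

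Slc16a6, a monocarboxylate carrier family member (MCT7), was the leading member in the other direction. Its lowest, median and highest levels were 9.79, 10.13 and 10.54 over the 7 animals of 3 months, 10.36, 10.57 and 11.06 over the 8 of 5-6 months, and 10.25, 10.48 and 11.10 over the 9 of 11-12 months. It averaged 10.61 at 11-12 months and 10.14 at 3 months (0.47, standard error 0.137, unadjusted p = 0.00248, adjusted p = 0.234 in limma), and the ages overlapped. The next brightest probe differed by 0.42 (adjusted p = 0.999 in limma) and the dimmest, detected on 9 arrays, by -0.00805. Within BeadChips 2 and 3 the brightest probe differed by 0.55 and 0.359, and with array weights limma called it (0.443, adjusted p = 0.0309, range over all settings 0.0309 to 0.569). Between 5-6 and 3 months the brightest probe differed by 0.45 (adjusted p = 0.488 in limma).

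Other members with low age p-values come from several roles. Slc41a3, of a magnesium carrier family, averaged 6.16 at 11-12 months and 6.58 at 3 months (-0.41, adjusted p = 0.464 in limma), and its other probe differed by -0.349. Slc27a1, a fatty acid transport protein, averaged 10.06 at 11-12 months and 10.41 at 3 months (-0.35, adjusted p = 0.49 in limma). Within BeadChips 2 and 3 the Slc27a1 difference was -0.54 and -0.285. Slc7a10, the small neutral amino acid carrier Asc-1, averaged 10.62 at 11-12 months and 11.05 at 3 months (-0.43, adjusted p = 0.604 in limma). Slc22a19, a rodent organic anion carrier, was detected on 5 of 7 arrays at 3 months, 4 of 8 at 5-6 months and 1 of 9 at 11-12 months, and its difference between 11-12 and 3 months was -0.68 (adjusted p = 0.389 in limma). Slc7a7 was detected on 1 of 9 arrays at 11-12 months and 3 of 7 at 3 months (-0.49, adjusted p = 0.277 in limma), but its other probe, detected on 3 arrays, differed by -0.0521. Slc12a9, an orphan of the cation-chloride family, differed by -0.35 and by -0.442 on the other probe (adjusted p = 0.645 and 0.234 in limma).

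**Figure D3:**
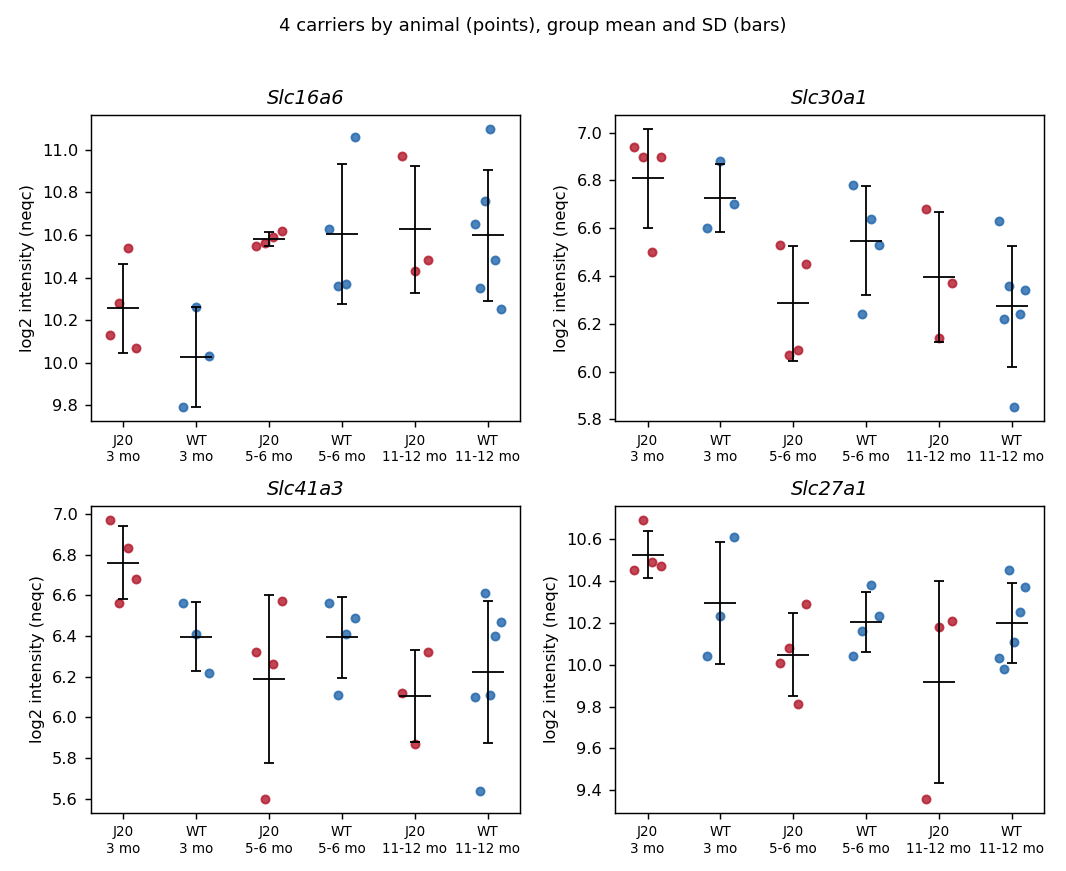
Log2 intensity (neqc) of Slc16a6, Slc30a1, Slc41a3 and Slc27a1 in each animal, with points for animals (red J20, blue WT), horizontal marks for group means and bars of 1 SD. Slc16a6 lies between 10.25 and 11.10 at 11-12 months and between 9.79 and 10.54 at 3 months, and Slc30a1 between 5.85 and 6.68 at 11-12 months and between 6.50 and 6.94 at 3 months.

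The age comparisons within each genotype also gave 0 called members by limma. In WT, 11-12 against 3 months had 0.105% of all tested probes called, and 7 members at an unadjusted p under 0.05 against 4.41% of all tested probes. They include Slc17a5, the lysosomal sialic acid carrier sialin (7.80 at 11-12 months, 8.30 at 3 months, -0.50, adjusted p = 0.574 in limma), Slc12a4 (8.52 and 9.15, -0.62, adjusted p = 0.619 in limma) and Slc12a7, the potassium-chloride cotransporter KCC4 (6.90 and 6.14, 0.76, adjusted p = 0.818 in limma). The Slc12a7 difference was 0.777, 1.37 and 0.117 within BeadChips 1, 2 and 3. WT 3-month animal 15, on BeadChip 2, had no detected Slc12a7. Leaving out 1 animal brought the difference to between 0.369 and 1.18. In J20 the same ages had 0.0611% of all tested probes called, and 7 members at an unadjusted p under 0.05 against 5.31% of all tested probes. Slc27a1 (9.92 at 11-12 months, 10.52 at 3 months, -0.61, adjusted p = 0.653 in limma) and Slc41a3 (6.10 and 6.76, -0.66, adjusted p = 0.788 in limma) had the smallest p there. Much of the Slc27a1 value came from J20 11-12-month animal 21, at 9.36, where the other animals had 10.18 and 10.21. Its difference was -1.13 on BeadChip 2, which sets animal 21 against J20 3-month animal 16 alone, and -0.273 on BeadChip 3. It was -0.755 to -0.33 when 1 animal was left out. Slc22a19 was not well above background on any of 3 J20 arrays at 11-12 months. As measured, its mean there was at least 1.07-fold lower than at 3 months, which limma did not call without array weights (adjusted p = 0.81). Slc12a4 differed by -0.10 between these ages in J20 (95% interval -0.546 to 0.354), and the interaction test did not separate it from the WT value.

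The remaining pairs of ages were quieter. WT 5-6 against 3 months had 0% of all probes called and 2 members at an unadjusted p under 0.05 (2.57% of all tested probes), Slc16a6 (0.58) and Slc7a7 (-0.56). WT 11-12 against 5-6 months had 0.0436% called and 3 members (1.65%), among them the scaffold gene Slc9a3r1 (0.22). J20 5-6 against 3 months had 0% called and 6 members (3.18%), led by Slc30a1 (-0.53, adjusted p = 0.961 in limma). J20 11-12 against 5-6 months had 0.0349% called and 2 members (1.34%), Slc7a7 and the insulin-responsive glucose carrier Slc2a4, neither of which was well above background on any J20 array of 11-12 months. Over both genotypes, 5-6 against 3 months had 0.0698% called and 6 members at an unadjusted p under 0.05 (4.14%), which include Slc35b4, a UDP-sugar carrier (0.23, adjusted p = 0.987 in limma). The pair 11-12 against 5-6 months had 0.0523% called and 4 members (1.33%), led by Slc22a19 (-0.59, adjusted p = 1 in limma). These comparisons share animals, so their lists are not independent.

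Partner genes that carriers work with, such as sodium pump subunits, carbonic anhydrases, chaperones, organic anion polypeptides and efflux pumps, were tested as well. Of 41 such genes 28 passed the filter, and limma called 0 in either direction in each of the 13 comparisons, where 0% to 0.358% of all tested probes were called. At an unadjusted p under 0.05 there were 0 to 2 of the 28. The smallest p for 11-12 against 3 months belonged to Fxyd2, the regulatory gamma subunit of the sodium pump (0.41, adjusted p = 0.315 in limma), and to Slco1a5, an organic anion carrier (-0.341, adjusted p = 0.679 in limma). Between genotypes over the 3 ages the smallest was Abcc5, an efflux pump (-0.15, adjusted p = 1 in limma).

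Some carriers differed strongly between animals of 1 group. The SD between animals within groups had a median of 0.319 over the 140 members (range 0.111 to 1.31), beside 0.315 for all tested probes, and 0.276 beside 0.274 for those detected on all 24 arrays. By role the median SD was lowest for Golgi and endoplasmic reticulum carriers (0.232) and metals (0.276), and highest for neurotransmitter, creatine and taurine carriers (0.366) and for sugar, monocarboxylate and other fuel carriers (0.359). In these 4 roles, in that order, 13 of 19, 17 of 19, 7 of 9 and 13 of 22 members were detected on all 24 arrays. The part of dim probes in the order of roles was not tested. The steadiest members were Slc9a3r1 (0.111), Slc13a4 (0.12), Slc46a1 (0.13) and Slc2a1 (0.134).

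**Figure D4:**
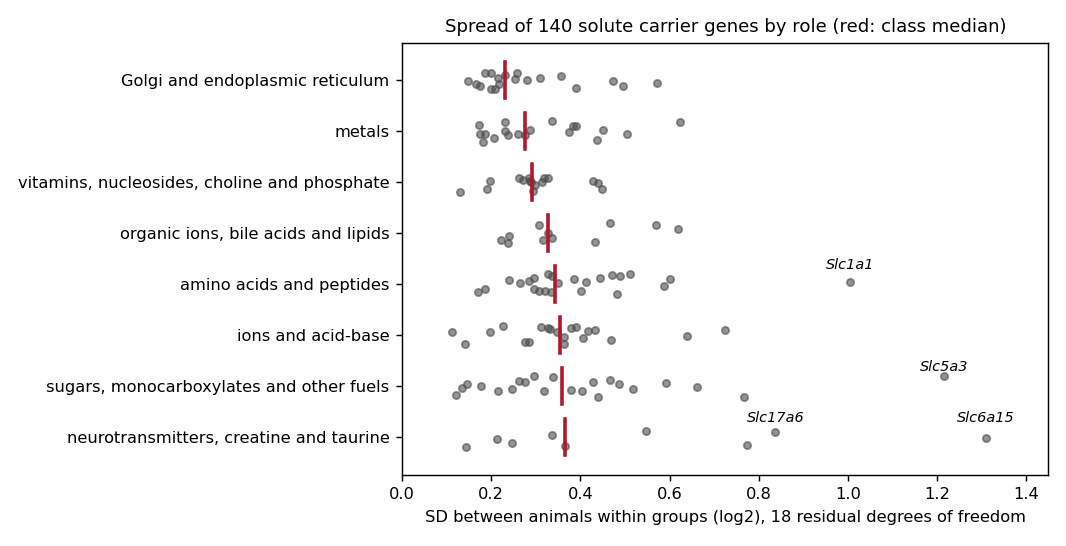
SD of log2 intensity between animals within groups for each of the 140 members, grouped by role, with red marks at the class medians. Most members lie below 0.5, and Slc6a15 (1.31), Slc5a3 (1.22), Slc1a1 (1.004) and Slc17a6 (0.84) lie farthest out.

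The widest spreads were those of Slc6a15, a neutral amino acid carrier of the neurotransmitter family (SD 1.31), and Slc5a3, the myo-inositol carrier known to respond to osmolarity (SD 1.22). Slc6a15 was 4.62 in WT 3-month animal 15, 4.83 in J20 5-6-month animal 18, 5.12 in WT 5-6-month animal 10 and 5.60 in J20 11-12-month animal 21, and the other 20 animals lay between 6.27 and 9.02. Each of these 4 was the lowest of its group. The same 4 animals were the highest of their groups in Slc5a3, at 8.58, 9.49, 9.48 and 8.59, where the other 20 lay between 5.22 and 7.77. They were also the highest of their groups on the brighter probe of Slc38a2, the amino acid carrier SNAT2, at 9.61, 9.49, 9.46 and 9.46. On the brighter probe of Slc7a8 these 4 were again the highest of their groups, at 10.42, 10.66, 10.24 and 10.80. The dimmer Slc38a2 probe ran against the brighter one (r = -0.422 over 24 arrays, as a description). These arrays come from 4 of the 6 groups and from both genotypes.

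In the same 4 animals, endothelium markers (4 of 6 passed, Cldn5 and Kdr did not) deviated by 1.53, 1.07, 0.81 and 0.25, the highest of each group. Their log2 upper quartile of raw intensity was 7.90, 7.71, 8.05 and 7.91, the lowest of the group in the first 3. Their epithelium markers deviated by -0.25, -0.19, -0.07 and -0.2, the lowest of each group. Limma's array weights for these animals, 0.175, 0.341, 0.512 and 0.33, were the 4 lowest of the 24. The part of these in the Slc6a15, Slc5a3, Slc38a2 and Slc7a8 levels was not tested.

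**Figure D5:**
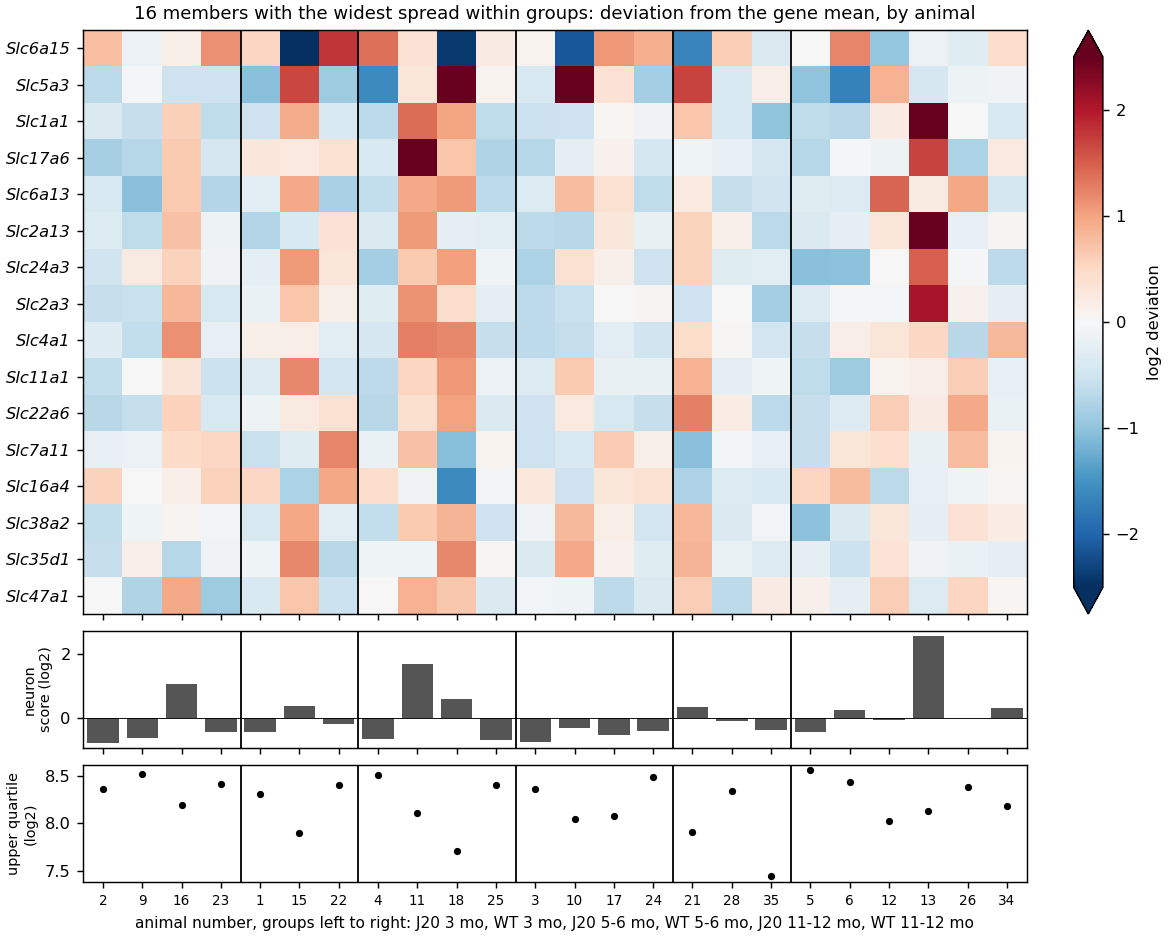
Deviation of log2 intensity from the gene's mean over 24 animals for the 16 members with the widest spread within groups, above the neuron marker score and the log2 upper quartile of raw intensity of each array. WT 3-month animal 15, J20 5-6-month animal 18, WT 5-6-month animal 10 and J20 11-12-month animal 21 are low in Slc6a15 and high in Slc5a3, and WT 11-12-month animal 13 is high in Slc1a1, Slc2a13 and Slc2a3.

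A second pattern across animals followed neuron markers. The 3 animals of highest neuron score, 16, 11 and 13, were also the highest of their groups in astrocyte markers (0.406, 0.83 and 1.69, 5 of 6 passed, Gfap did not) and in the oligodendrocyte markers that passed the filter (0.63, 0.843 and 0.411), so a relation to neurons cannot be told apart from one to brain tissue. Over the 24 arrays, 10 of 140 members (9 positive, 1 negative) correlated with the neuron marker score by both Pearson's r and Spearman's rho at an adjusted permutation p under 0.05 (100000 permutations, 2-sided, 11454 probes in the family), against 3.98% of those probes. The vesicular glutamate carrier Slc17a6 (VGLUT2) had r = 0.863 and rho = 0.751 (permutation p = 1e-05, the smallest these permutations give, and 5e-05, adjusted 0.00082 and 0.0043). Without the 2 farthest arrays, WT 11-12-month animal 13 and J20 5-6-month animal 11, its r was 0.737, and within BeadChips 1, 2 and 3 it was 0.599, 0.824 and 0.536. Its level was 8.09 in J20 5-6-month animal 11 and 7.19 in WT 11-12-month animal 13, and between 4.67 and 6.2 in all others.

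The neuronal glucose carrier Slc2a3 (GLUT3) had r = 0.887 and rho = 0.7 (permutation p = 1e-05 and 0.00029, adjusted 0.00082 and 0.012), 0.697 without the 2 arrays, and 0.705, 0.885 and 0.279 within BeadChips. The neuronal glutamate carrier Slc1a1 (EAAC1) had r = 0.892 and rho = 0.657 (permutation p = 1e-05 and 0.00071, adjusted 0.00082 and 0.018), 0.703 without the 2 arrays. Within BeadChips its r was -0.524, 0.914 and 0.4, so the relation did not hold on BeadChip 1. The myo-inositol carrier of neurons, Slc2a13, had r = 0.848 and rho = 0.589, 0.558 without the 2 arrays, and 0.312, 0.81 and 0.43 within BeadChips. Of the 10 members, 8 kept an r beyond 0.5 in size without the 2 arrays. Of those 8, however, Slc24a3, Slc38a9 and Slc39a13 had r below 0 on BeadChips 1 and 3, at -0.163 and -0.29, -0.148 and -0.415, and -0.284 and -0.559, and above 0 on BeadChip 2 alone (0.739, 0.746 and 0.504). Slc30a1 was the 1 negative member, with r = -0.641 and rho = -0.607 (permutation p = 0.00047 and 0.0021, adjusted 0.017 and 0.031), -0.395 without the 2 arrays and -0.808, -0.727 and -0.441 within BeadChips. Slc17a6, Slc1a1, Slc2a3 and Slc2a13 were detected on 8, 10, 6 and 4 of 24 arrays. The 4 arrays of Slc2a13 were those of animals 16, 22, 11 and 13, which include the 3 of highest neuron score. Slc2a13 thus passed the detection filter through those arrays, so its r is in part set by the filter.

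Slc4a1, the anion exchanger of red blood cells, was detected on 5 of 24 arrays and reached 6.29 in J20 3-month animal 16, and 6.35 and 6.40 in J20 5-6-month animals 18 and 11. The erythroid markers that passed the filter deviated by 0.913, 3.2 and 0.878 in these animals. They did not track Slc4a1 throughout: J20 3-month animal 2 and WT 3-month animal 1 had scores of 1.9 and 1.46 but Slc4a1 at 4.82 and 5.29, not detected, and WT 11-12-month animal 34 had a score of -0.435 with Slc4a1 detected at 5.95. Slc4a1 correlated with the neuron score at r = 0.75 and rho = 0.743 (permutation p = 7e-05 and 4e-05, adjusted 0.0039 and 0.0038), 0.843 without the 2 arrays and 0.602, 0.55 and 0.69 within BeadChips. The arrays where Slc4a1 was detected include those of animals 16, 11 and 13, the 3 of highest neuron score, so the filter bears on this r too. The part of blood or brain tissue in the Slc4a1 level was not tested. Between genotypes at 5-6 months it averaged 5.51 in J20, detected on 2 of 4 arrays, and 4.64 in WT, where it was not well above background on any array (limma, adjusted p = 1).

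Where more than 1 probe of a gene passed the filter, the probes often disagreed in direction. Of 22 such genes, the next brightest probe had the same sign as the brightest in 14 for J20 against WT over the 3 ages and in 13 for 11-12 against 3 months. Both probes of Slc30a5, a Golgi zinc carrier, gave near-equal genotype differences (-0.0704 and -0.0886), and those of Slc35a5 had the same sign (-0.303 and -0.421). The 3 probes of Slc39a7, a zinc carrier of the endoplasmic reticulum, gave 0.0785, -0.216 and -0.193. Results that rest on the 118 members with 1 probe that passed have no such check, and Slc15a2 and Slc30a1 are among them.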

How the data were processed

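Choroid plexus RNA of 24 mice was hybridised to Illumina arrays. Per the file headers, the authors deposited a non-normalized intensity and a detection p-value per probe and array. The values in the deposited series matrix are log2 and equal quantile-normalized log2 intensities within 5e-09. How the intensities were read out is not given in the sources used here. All columns of values were used. Symbols came from the platform's probe table, and 23962 of 23978 named probes matched RefSeq gene identifiers.

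The intensities went through neqc (limma 3.58.1, R 4.3.3; background parameters from the detection p-values, offset 16, quantile, log2). Probes detected (p below 0.01) on 3 or more arrays, 11464 in all, entered 1 limma fit of 24 arrays with a mean per group, which was tested on simulated data. Intervals are 95%. The replicates are separate mice, 0 arrays were identical, and r over probes within groups was 0.907 to 0.991. Their number limits the precision.

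Named members are, per comparison, the 6 with the smallest unadjusted p, per role the 3 brightest and the 2 of widest spread, and a list of known choroid plexus carriers. Members and lists were chosen with earlier results of these data known. A few names outside the rule, such as carriers not detected, were chosen after their values were seen. Alternatives were other scalings, filters, BeadChip blocks, array weights, all probes, fewer arrays and each animal left out. The other alternatives, without the 3 arrays of highest neuron score and with the upper quartile of intensity as a covariate, were chosen after seeing the data.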

Additional observations from a re-analysis of the deposited data

Results flagged for a closer look

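Of 84 groups of 4 to 6 animals tested over 21 members, 6 held a sample that stood apart from the rest of its group by Dixon's criterion, and chance flags about 1 in 20 groups. Slc2a3 was 6.17 in J20 3-month animal 16, where the next animal had 4.96, and 7.40 in WT 11-12-month animal 13, where the next had 5.46. Slc1a1 was 8.80 in that animal 13, against 5.82 in the next. Slc30a1 was lowest in J20 3-month animal 16, at 6.50 against 6.90. These 2 animals have neuron marker scores of 1.07 and 2.57. Slc15a2 was lowest in J20 3-month animal 23, at 5.75 against 6.03, which is still above 2 of the 3 WT animals of that age. Slc7a10 was highest in WT 5-6-month animal 10, at 10.93 against 10.59.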

How the results depend on the processing

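Of 4209 values recomputed under other settings, 4155 kept their direction and side of the threshold or moved by less than the spread, 42 moved, 12 gained a call, 0 lost one and 0 reversed. Array weights, which ran from 0.175 (WT 3-month animal 15) to 4.69 (J20 11-12-month animal 35), gave 2 called members for J20 against WT at 11-12 months (Slc7a8 and Slc35a5, 2.33% of probes called), 2 over the 3 ages (Slc35a5 and Slc15a2) and 2 for J20 11-12 against 3 months (Slc30a1 and Slc22a19, 2.23%). Over both genotypes they gave 1 for 5-6 against 3 months (Slc16a6, 0.305%) and 7 for 11-12 against 3 months (Slc16a6, Slc35b4, Slc6a17, Slc16a4, Slc30a1, Slc22a19 and Slc2a6, 4.78%). The cause was not tested. Leaving out 1 animal gave 0 to 1 called members at 3 months and over the 3 ages (1, Slc15a2, without WT animal 22). It moved the members' median to between -0.13 (without WT 3-month animal 1) and 0.024 for WT 5-6 against 3 months, and to between -0.13 and 0.052 (without WT 3-month animal 15) for WT 11-12 against 3 months. With the upper quartile of intensity as a covariate, a setting chosen after seeing the data, the median for J20 11-12 against 3 months was -0.12, against 0.0053. On the deposited values, which keep their background, the number of members with an interval within 1.5-fold at 3 months was 120 in place of 52, and differences of dim probes shrank. The BeadChip as assigned here changed no call, as a random block (correlation 0.248) or as a fixed block. No paired analysis was possible because the numbers in the titles are unique to animals and the groups share none. Groups of 3 animals limit the age and genotype comparisons, and 45 members were not detected on every array.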
